A study of Homo sapiens with 8 samples.

Results

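Expression of 10 genes that feed back on ERK signaling was described in CSCs (H460C) and cisplatin-resistant cells (H460R). The genes were the dual-specificity phosphatases DUSP1, DUSP2, DUSP4, DUSP5, and DUSP6, the Sprouty genes SPRY1, SPRY2, and SPRY4, and the related SPRED1 and SPRED2. They were chosen by name, as every non-control probe whose design accession maps to one of these symbols. The rule found 13 probes among 41000 on the array, and 12 of them passed the filter on dim spots. Each of the 10 genes kept at least 1 probe, among 11829 genes with a current symbol that were tested. The second probe of SPRED2 was not well above background on any array.

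H460 (HTB-177) is a human non-small cell lung cancer line, and both populations derive from it. H460C were obtained by keeping H460 cells without attachment in serum-free DMEM/F12 with N2 supplement and 20 ng/mL of EGF and FGF-b. H460R were the survivors of a single exposure to cisplatin, 0.5 µg/mL for 72 hours, and were then kept without drug in the RPMI medium with serum in which untreated H460 cells also grew. The time between drug removal and RNA isolation is not given in the sources used here. Each of 8 dual-color arrays compared H460C or H460R with H460 RNA, with 2 samples per population and 2 arrays of opposite dye per sample. Nothing in the labels says whether the samples came from separate cultures, so p-values may measure technical spread only.

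The H460 RNA was named as 1 sample, so the ratios were tested against 0, a test that leaves out the spread of H460, and both comparisons share it. Culture medium and attachment cannot be told apart from population in H460C, and each population lay on a slide of its own. The difference between the H460C replicates did not exceed hybridization noise (the correlation of the replicate difference between the dye orientations was 0.017, against 0.252 in H460R). Their mean is therefore given as the value of 1 sample, without SD. The tests took both H460C ratios, as planned, and p-values with H460C as 1 sample are given beside the main differences. In that fit the lone H460C sample is assumed to vary like H460R, whose replicates give all of the residual spread. Between 22834 and 28499 probes per array channel were well above background. Of the epithelial markers, 3 of 6 were well above background in all 16 channels, and of 4 leukocyte markers CD14 was so too (at -0.999 in H460C and -0.81 in H460R), while PTPRC was not well above background in any channel. Of the fibroblast markers, 2 of the 3 on the array were above background in all 16 channels. COL3A1 was at 1.32 in H460C and -0.71 in H460R, PDGFRB at 0.26 and -0.46, and their part in the results was not tested.

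ERK is the last kinase of a cascade that carries growth factor signals from a receptor through RAS, RAF, and MEK. Active ERK turns on genes whose products switch the cascade off again. The DUSP proteins of this group remove the activating phosphates from MAP kinases, while Sprouty and SPRED proteins act further up, between the receptor and RAF. Their RNA levels are often read as a trace of recent ERK activity in cancer cells, although other signals control several of them as well.

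The promoters of the members that stood lowest in H460C are shown because the results turn on these genes. A promoter was found for 8 of the 10 members in the RefSeq table of GRCh38.p14, which had no entry for DUSP4 and DUSP5. The 250 bases before the start of each gene are printed 5′ to 3′ on the strand of the gene. Capitals mark the letters TGACG, the core of the cAMP response element, and CCGGAA, an ETS core, on either strand. The windows of DUSP1 (chr5:172771196-172771445, minus strand), SPRY2 (chr13:80341127-80341376, minus strand), DUSP6 (chr12:89352502-89352751, minus strand), and SPRED2 (chr2:65432600-65432849, minus strand) follow.
DUSP1: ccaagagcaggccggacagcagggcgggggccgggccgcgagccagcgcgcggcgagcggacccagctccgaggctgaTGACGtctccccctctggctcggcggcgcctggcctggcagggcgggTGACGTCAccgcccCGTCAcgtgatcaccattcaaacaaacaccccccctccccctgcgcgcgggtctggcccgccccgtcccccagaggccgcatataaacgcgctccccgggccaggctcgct
SPRY2: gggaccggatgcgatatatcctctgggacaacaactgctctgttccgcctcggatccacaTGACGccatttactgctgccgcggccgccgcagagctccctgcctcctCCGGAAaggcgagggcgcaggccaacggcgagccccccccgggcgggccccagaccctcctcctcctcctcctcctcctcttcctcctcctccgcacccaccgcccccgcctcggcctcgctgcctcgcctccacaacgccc
DUSP6: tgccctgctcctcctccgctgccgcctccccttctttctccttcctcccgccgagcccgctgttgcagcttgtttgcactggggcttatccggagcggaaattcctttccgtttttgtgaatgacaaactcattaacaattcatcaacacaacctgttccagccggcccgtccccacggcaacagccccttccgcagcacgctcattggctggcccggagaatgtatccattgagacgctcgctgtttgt
SPRED2: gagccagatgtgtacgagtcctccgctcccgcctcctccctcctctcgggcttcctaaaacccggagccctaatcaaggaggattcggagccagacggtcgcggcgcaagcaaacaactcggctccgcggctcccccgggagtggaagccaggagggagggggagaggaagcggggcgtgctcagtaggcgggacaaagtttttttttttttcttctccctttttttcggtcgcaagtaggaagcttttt

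The DUSP1 window held 4 matches to TGACG, at -172 to -168, -125 to -121, -122 to -118, and -111 to -107 from the start, with the middle sites overlapping. The sites at -172 and -125 lay on the strand of the gene and the others on the opposite strand. SPRY2 held 1 match to TGACG at -190 to -186 and 1 to CCGGAA at -142 to -137. SPRY4, which is not printed, held 1 match to TGACG at -68 to -64. The windows of DUSP2, DUSP6, SPRY1, SPRED1, and SPRED2 held neither of these. The letters TGANTCA of the AP-1 site and the CArG box of serum response factor were absent from all 8 windows. Of 35116 promoters of the same length, 21.2% held TGACG, 14.5% CCGGAA, 6.57% TGANTCA, and 1.16% a CArG box. Where the table held more than 1 window for a gene (2 for SPRY1, 3 for SPRY2, and 2 for SPRED2), the window at the outermost start was used. These matches are a description of the letters only.

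In H460C compared with H460 cells, 4 members had log2 ratios near or below -0.84, 2 had ratios near 0.85, and the other 4 lay within 0.15 of 0. The low members were SPRY2, DUSP6, SPRED2, and DUSP1, and the high members DUSP5 and SPRY1. None of the 10 was called by Rank Products at an FDR of 0.05, a test that called 0.744% of tested genes higher and 0.634% lower. The smallest FDR among members was 0.207, for SPRY2. By size alone, SPRY2 was the 1 member with a log2 ratio under -1 (4.18% of tested genes), and 0 members were over 1 (6.7%). The exact unadjusted p was under 0.05 for 2 members higher and 4 lower, against 10.9% and 10.5% of tested genes. With limma in place of Rank Products, 2 members were called higher and 5 lower, where 40.3% and 39% of all tested genes were called. In both counts the higher members were DUSP5 and SPRY1. SPRY1 passed the filter only through H460C, where it was high, which favors a higher ratio there. All genes called higher by Rank Products had log2 ratios of at least 2.28, and all called lower had ratios of -1.99 or less, so no member reached the size of the called genes.

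SPRY2, an inhibitor that binds the adaptors between receptor and RAS, had the lowest ratio of the members in H460C. It was -1.29 and -1.09 in replicate 1, with H460C in Cy3 and in Cy5, and -1.13 and -1.03 in replicate 2. All 4 arrays lay below 0, with a mean of -1.13 (2.20-fold lower than in H460 cells). Only 3.10% of tested genes had a lower ratio.

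DUSP6, a cytoplasmic phosphatase that acts chiefly on ERK, gave -0.41 with H460C in Cy3 and -1.44 with H460C in Cy5 in replicate 1. Replicate 2 gave -0.42 and -1.45. Every array lay below 0, but the size depended on the dye, and the mean of -0.93 (1.91-fold lower) averages over that gap. The same gap between dyes was found on the H460R arrays (-1.06, against -1.03 on those of H460C).

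SPRED2, which like SPRED1 brings the RAS inactivator neurofibromin to the membrane, was at -1.02 and -0.79 in replicate 1 and at -0.91 and -0.82 in replicate 2. All 4 arrays lay below 0, and the mean was -0.88 (1.84-fold lower).

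DUSP1, a nuclear phosphatase of p38, JNK, and ERK, was at -1.22 and -0.49 in replicate 1, with H460C in Cy3 and in Cy5. It was at -1.20 and -0.46 in replicate 2. Here the arrays with H460C in Cy5 gave the smaller change, the reverse of DUSP6. The mean was -0.84 (1.79-fold lower), and 5.99% of tested genes lay lower.

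DUSP5, a nuclear phosphatase specific for ERK, was with SPRY1 at the top of the members in H460C. Its ratio was 0.64 and 1.12 in replicate 1 and 0.63 and 1.01 in replicate 2, a mean of 0.85 (1.80-fold higher). SPRY1, a second Sprouty gene, was at 0.83 and 0.90 in replicate 1 and at 0.57 and 1.06 in replicate 2, with a mean of 0.84 (1.79-fold higher). Its mean was 1.84 with the log ratio of the scanner software and 1.502 without an offset in the background model, above the 0.86 and 0.89 of DUSP5, so the order of these genes depended on the background correction. All 4 arrays of each gene lay above 0, and 9.05% and 9.23% of tested genes had higher ratios. SPRY1 lay close to background. It was well above background in H460C on all 4 arrays, but in H460 cells on 3 of the 4 H460C arrays and 1 of the 4 H460R arrays. It therefore passed the filter only through H460C, where it was high.

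The remaining members had mean ratios between -0.14 and 0.12 in H460C. DUSP4, a nuclear phosphatase close to DUSP1, ranged from -0.09 to 0.33 over the arrays, and DUSP2, another nuclear phosphatase, from -0.02 to 0.21. The second probe of DUSP2 ranged from -0.67 to 0.11, with a mean of -0.27, so its probes disagreed in sign. SPRY4 ranged from -0.46 to 0.32 and changed sign with the dye. SPRED1 ranged from -0.18 to -0.11. SPRY4 and SPRED1 were positive when arrays were centred on the median in place of loess (0.15 and 0.11), a scaling that moved the median of all probes to 0.15; relative to that median they were at 0.0027 and -0.036.

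**Figure D1:**
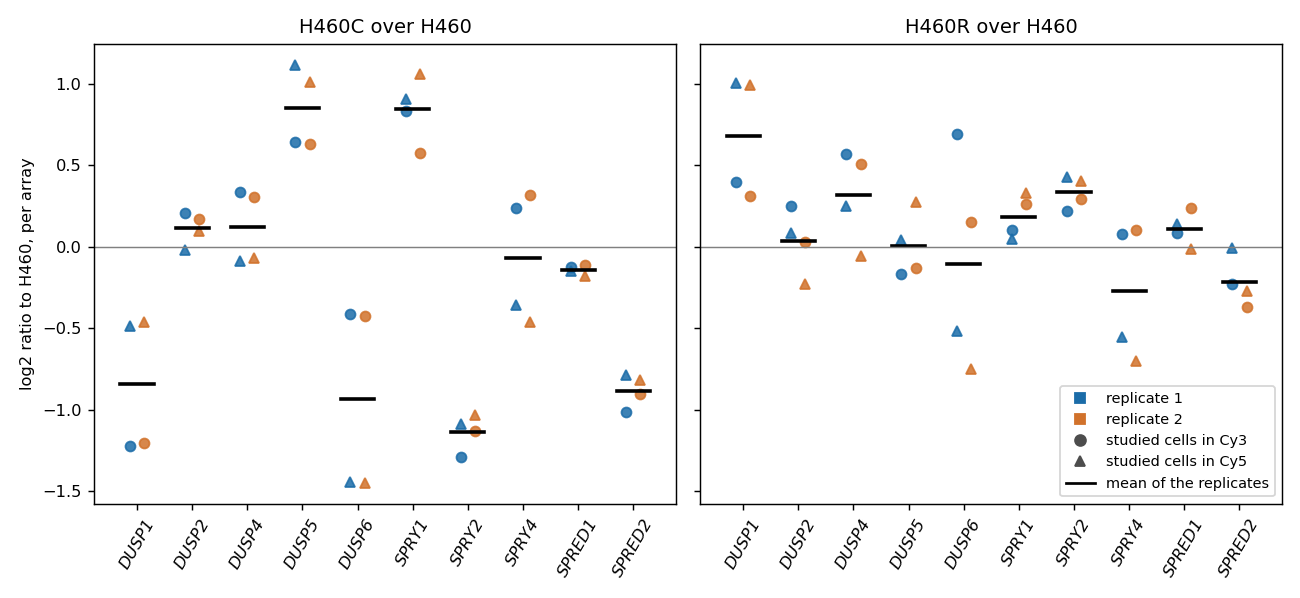
Log2 ratio to H460 cells of each member on each array, H460C on the left and H460R on the right. Circles and triangles mark the dye of the studied cells, colors the replicate, and black lines the mean; SPRY2 and DUSP1 lie below 0 on all 4 H460C arrays and above 0 on all 4 H460R arrays.

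In H460R compared with H460 cells the members lay closer to 0, from -0.27 to 0.68, with 0 members over 1 (3.63% of tested genes) or under -1 (1.31%). None was called by Rank Products, which called 0.541% of tested genes higher and 0.541% lower. The exact unadjusted p was under 0.05 for 1 member higher and 0 lower, against 9.15% and 9.11% of tested genes, and the smallest FDR was 0.530, for DUSP1. With limma, 5 members were called higher and 2 lower, where 38.9% and 37.6% of all tested genes were called.

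DUSP1 had the highest ratio of the members in H460R. It was 0.40 and 1.00 in replicate 1, with H460R in Cy3 and in Cy5, and 0.31 and 0.99 in replicate 2. All 4 arrays lay above 0, and the mean was 0.68 ± 0.035 (SD, n = 2), or 1.60-fold higher than in H460 cells. A higher ratio was found for 8.69% of tested genes.

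SPRY2 came next, at 0.22 and 0.43 in replicate 1 and 0.29 and 0.40 in replicate 2 (mean 0.34 ± 0.016, SD, n = 2). DUSP4 followed with 0.32 ± 0.13 (SD, n = 2), from -0.06 to 0.57 over the arrays. These neighbours in the order did not differ beyond the spread of DUSP4.

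DUSP6 was the most variable member in H460R. Replicate 1 gave 0.69 with H460R in Cy3 and -0.52 in Cy5, and replicate 2 gave 0.15 and -0.75. The replicate means were 0.09 and -0.30 (mean -0.11 ± 0.27, SD, n = 2), so the samples disagreed in sign. SPRY1 (0.18 ± 0.15), SPRED1 (0.11 ± 0.0019), DUSP2 (0.03 ± 0.19), DUSP5 (0.0057 ± 0.096), SPRED2 (-0.22 ± 0.14), and SPRY4 (-0.27 ± 0.042, all SD, n = 2) were within 0.30 of H460 cells on average. The second probe of DUSP2 was at -0.25 ± 0.15 (SD, n = 2).

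**Figure D2:**
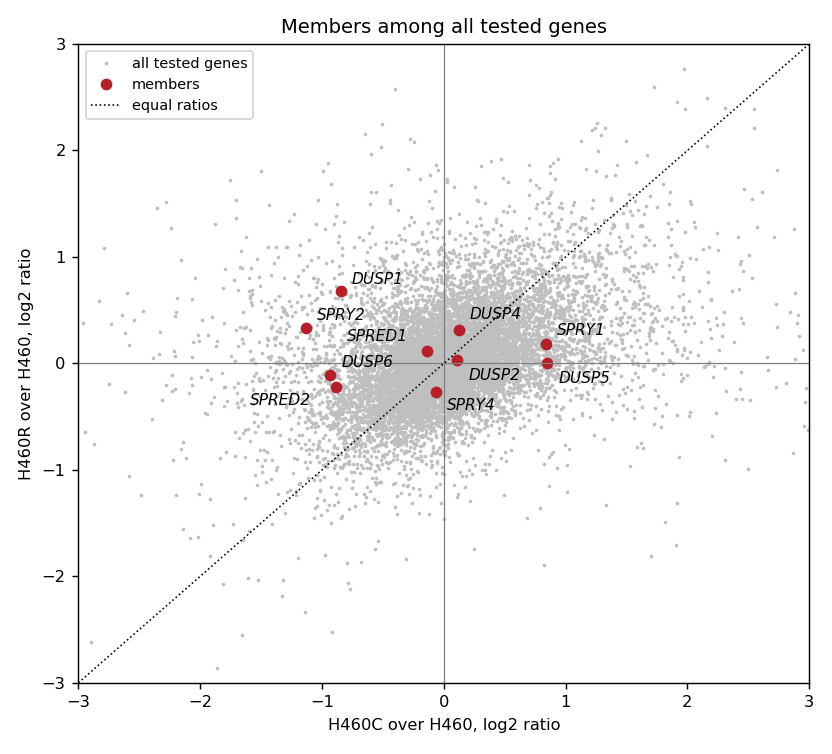
Log2 ratio to H460 cells in H460C (horizontal) and H460R (vertical) for all tested genes (grey, brightest probe; 57 genes lie outside the axis limits) and for the members (red). The axes share the H460 RNA; DUSP1 and SPRY2 lie in the upper left, with -0.84 and -1.13 in H460C and 0.68 and 0.34 in H460R.

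The direct comparison of H460C with H460R, in which the H460 RNA drops out, asked whether CSCs and resistant cells differ in these genes. Of the 10 members, 9 were called by limma at an adjusted p under 0.05. DUSP1, SPRY2, DUSP6, SPRED2, SPRED1, and DUSP4 were lower in H460C than in H460R, and DUSP5, SPRY1, and SPRY4 higher, SPRY1 being the member that passed the filter through H460C alone. Calls were common, since 35.8% of all tested genes were called higher in H460C and 33.1% higher in H460R (68.9% in either direction). With H460C as 1 sample, 6 members were called, and the share of all tested probes called went from 65.0% to 48.5%. The median difference over the members was -0.22, against 0.02 over all tested genes.

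DUSP1 differed by -1.52 on the log2 scale (2.87-fold lower in H460C; SE 0.049, 95% interval -1.64 to -1.40, limma adjusted p = 4.64e-06, and 6.46e-06 with H460C as 1 sample). SPRY2 differed by -1.47 (2.77-fold lower; SE 0.056, interval -1.61 to -1.33, limma adjusted p = 7.77e-06, and 7.29e-06 with H460C as 1 sample). The order of the pair was not fixed, since SPRY2 differed more with the log ratio of the scanner software (-1.57 against -1.49). These were the 2 members that differed by over 1, a size that 5.48% of tested genes reached with H460R higher and 4.66% with H460C higher. In both genes the H460C and H460R arrays did not overlap, and the populations stood on opposite sides of H460 cells. The share of all tested genes with either pattern was not counted. Only 2.27% of tested genes had a lower difference than DUSP1 and 2.43% than SPRY2. The dye changed these differences little. With the studied cells in Cy3 DUSP1 differed by -1.57 and SPRY2 by -1.47, and in Cy5 by -1.47 and -1.48.

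DUSP6 was lower in H460C by -0.83 on the log2 scale (1.77-fold; SE 0.12, limma adjusted p = 0.00149, and 0.00219 with H460C as 1 sample). Its arrays overlapped between the populations until they were compared within a dye. With the studied cells in Cy3 the difference was -0.84, and in Cy5 it was -0.81. Without H460R replicate 1 it was -0.63, and without replicate 2 it was -1.02. For the next member the arrays did not overlap, and the share of all tested genes without overlap was not counted. SPRED2 was lower by -0.66 (1.58-fold; SE 0.076, limma adjusted p = 0.000497, and 0.00147 with H460C as 1 sample), and all 4 of its H460C arrays lay below all 4 of H460R.

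DUSP5 was higher in H460C than in H460R by 0.85 (1.80-fold; SE 0.063, limma adjusted p = 8.94e-05, and 0.000241 with H460C as 1 sample). SPRY1 was at 0.66 (1.58-fold), a value given as a description only. Its probe passed the filter only through the population where it was high, which favors such a difference. The arrays of the populations did not overlap for DUSP5 or SPRY1. As for SPRED2, the share of all tested genes without such overlap was not counted. This value for SPRY1 was 1.26 with the log ratio of the scanner software and 1.07 without an offset in the background model.

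The small differences were less stable. SPRED1 was lower in H460C by -0.25 (limma adjusted p = 0.00382) and SPRY4 higher by 0.20 (limma adjusted p = 0.0121), but with H460C as 1 sample the adjusted p was 0.0524 and 0.110. A second probe of SPRED1 gave -0.11 in both populations and a difference of -0.0024 (limma adjusted p = 0.974), so the probes of this gene disagreed. DUSP4 was lower by -0.20 (limma adjusted p = 0.0486), a call that was lost in 10 of 17 alternatives. These calls were lost when 1 sample was left out, with little change in size for SPRY4 (0.20 and 0.21) and SPRED1 (-0.25) and a larger error. The limma adjusted p of SPRY4 was 0.121 without H460C replicate 1 and 0.0998 without replicate 2, and that of SPRED1 was 0.0553 without H460C replicate 2. For DUSP4 it was 0.163 and 0.173 without H460C replicate 1 and 2, and 0.0602 without H460R replicate 1, where the difference was -0.11. DUSP2 differed by 0.08, with an interval of -0.14 to 0.30 (limma adjusted p = 0.480). Without H460R replicate 1 DUSP2 was called, at 0.21 (limma adjusted p = 0.00378), and without H460R replicate 2 it was at -0.055. Its second probe gave -0.27 in H460C and -0.25 in H460R.

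**Figure D3:**
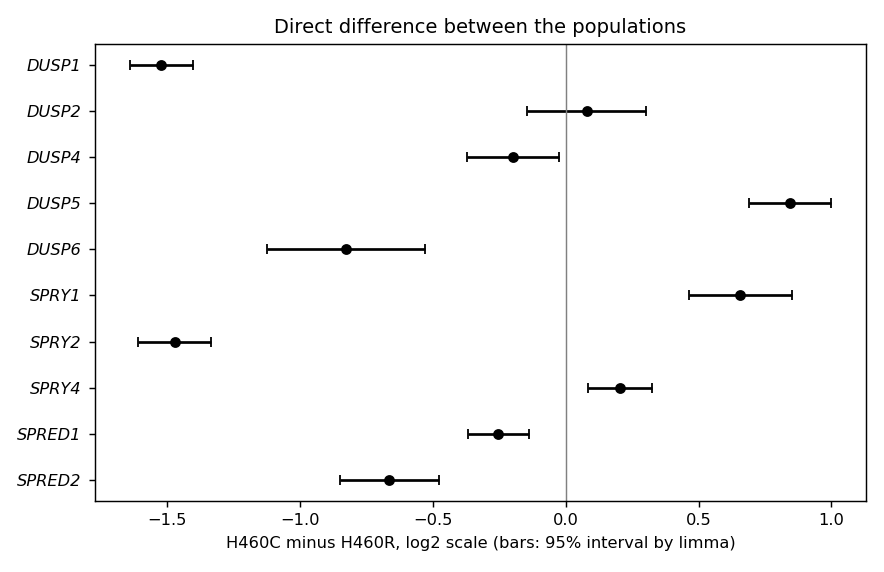
Difference between H460C and H460R on the log2 scale for each member (horizontal). Points are limma estimates, and bars are 95% intervals from the fit with both H460C ratios. DUSP1 and SPRY2 lie near -1.5, DUSP6 and SPRED2 between -0.5 and -1, DUSP5 and SPRY1 above 0.5, and the interval of DUSP2 includes 0.

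Among the nuclear phosphatases, H460C minus H460R was -1.52 for DUSP1, -0.20 for DUSP4, 0.08 for DUSP2, and 0.85 for DUSP5. In H460C itself the members ran from -1.13 to 0.85, with 4 of 10 above 0 and a median of -0.10. In H460R 7 of 10 lay above 0, with a median of 0.07. The medians over all tested genes were -0.0018 and 0.00080.

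Other genes of the pathway were described from lists chosen by function. None of the 7 tested DUSP genes that are not members, the 7 receptors, the 6 adaptors and exchange factors, the 11 RAS, RAF, MEK, and ERK genes, the 4 RAS GTPase-activating proteins, or SPRY3 was called by Rank Products in either population. The other DUSP genes ran from -0.63 to 0.70 in H460C and from -0.24 to 1.36 in H460R, where 6 of 7 lay above 0. The RAS, RAF, MEK, and ERK genes ran from -0.66 to 0.75 and from -0.69 to 0.19. The receptors ran from -1.68 to 1.68 in H460C and from -0.70 to 1.11 in H460R. SPRY3, the remaining Sprouty gene on the array, was at -0.78 in H460C and -0.29 ± 0.051 (SD, n = 2) in H460R.

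Of 13 transcriptional targets of ERK, 2 were called by Rank Products in H460C and 2 in H460R, all of them higher. EGR1, an immediate early transcription factor, had a log2 ratio of 3.86 in H460C (Rank Products FDR = 0.00241) and of 5.33 ± 0.040 (SD, n = 2) in H460R (FDR = 4.11e-05). FOS, a subunit of AP-1, was higher in H460R (2.77 ± 0.021, SD, n = 2, FDR = 0.00167) and was at 1.97 in H460C (FDR = 0.0830). IER3, an early response gene that limits cell death, was higher in H460C (2.61, FDR = 0.0302) and was at 1.61 ± 0.15 (SD, n = 2) in H460R (FDR = 0.0652). The list as a whole had medians of -0.08 in both populations, and 6 of its 13 genes lay above 0 in each. VEGFC, a growth factor of lymphatic vessels, is not on that list and was included because the study measured it beside DUSP1 and DUSP6. That measurement was by RT-PCR, and its result is not reported here. On the arrays VEGFC was at -1.38 in H460C and -0.17 ± 0.17 (SD, n = 2) in H460R. Its difference was -1.21 (SE 0.084, limma adjusted p = 6.75e-05). That test took both H460C ratios and called 68.9% of all tested genes in either direction.

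EGR1 and FOS, like DUSP1, were lower in H460C than in H460R (by -1.47 and -0.79, limma adjusted p = 5.14e-06 and 3.75e-05), while IER3 was higher (by 1.00, limma adjusted p = 0.000103). The test was the same as for VEGFC, with both H460C ratios and 68.9% of all tested genes called. Against H460 cells EGR1 was higher in H460C, where DUSP1 was at -0.84.

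**Figure D4:**
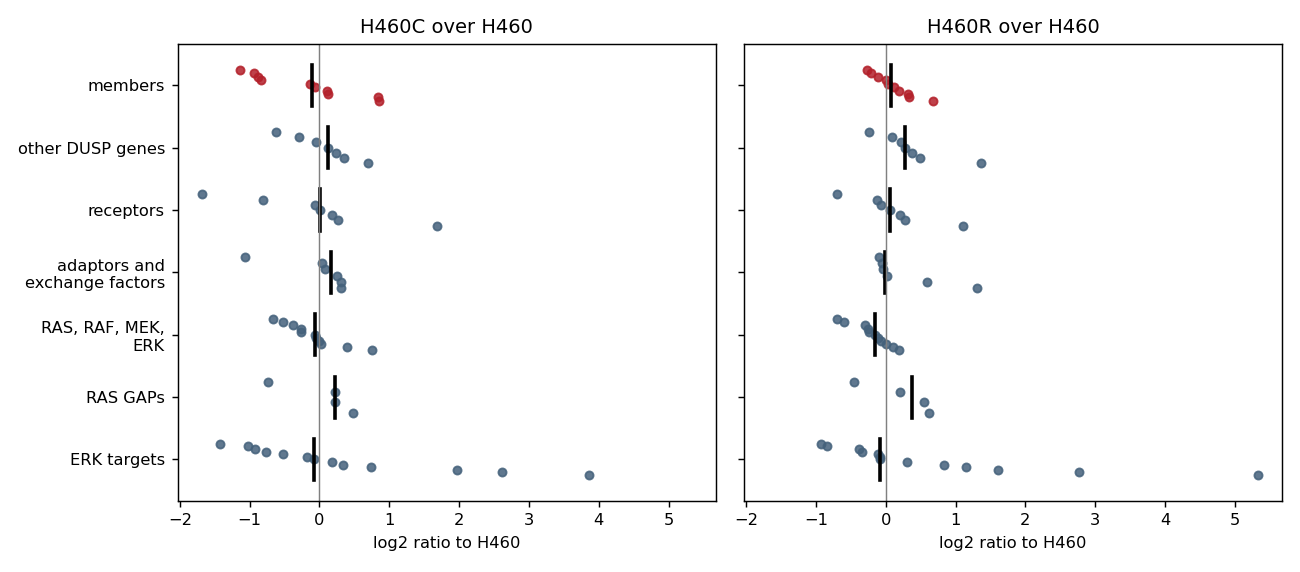
Log2 ratio to H460 cells (horizontal) of the members (red) and of the genes of 6 lists from the pathway (blue), H460C on the left and H460R on the right; black lines are list medians. The members stay between -1.13 and 0.85 in H460C and between -0.27 and 0.68 in H460R, and EGR1 is the ERK target on the far right at 3.86 and 5.33.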

How the data were processed

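Per the labels and the study's methods, RNA was labeled by a dual-color kit, hybridized with swapped dyes, and extracted by the authors with Feature Extraction (version 10.1.1.1). Median spot and background intensities were used as deposited, without normalization. The software's log10 ratio, deposited by the authors, and their processed table of log2 ratios (background correction and normalization not given in the sources used here) served as alternatives. That table had 0 columns without a sample. In 1 array the log10 ratios stood without decimal points and were divided by 10 to the power of 9.

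For background correction the normexp model was used (limma 3.58.1 in R 4.3.3, offset 50). Spots whose local background exceeded 2 times the median of the array (0 to 17 per array) and outlier spots were left out, and ratios were normalized by loess. Probes with at least 0.5 of their spots well above background in every channel of a population were kept (26046), of which 24345 had all 8 arrays. Of 25868 probes with RefSeq names, 23958 matched a current symbol. Each gene was represented by its brightest probe, dye-swap arrays were averaged, and Rank Products (exact, one-sided in each direction) and limma (two-sided, 2 residual and 3.95 prior degrees of freedom) were adjusted by Benjamini-Hochberg over all tested probes, at 0.05. The scripts were tested on simulated data. The number of arrays limits the precision.

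The members and lists were chosen with earlier results of these data known. Named genes were all members, EGR1, VEGFC, and each gene of the other lists that Rank Products called. SPRY3, the only gene of its list that was tested, and the markers COL3A1, PDGFRB, CD14, and PTPRC were named after their values were seen. Of the marker lists, 3 of 6 epithelial, 1 of 4 leukocyte, 0 of 3 endothelial, and 2 of 3 fibroblast genes on the array were above background in all 16 channels. Alternatives varied background correction, normalization, filter, dye, probe, replicates, and test.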

Additional observations from a re-analysis of the deposited data

Results flagged for a closer look

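The effect against H460 cells differed between H460C and H460R for 9 members by the limma test of the difference itself, where 68.9% of all tested genes were called. SPRY1, which is among them, passed the filter only through H460C, where it was high, so its value is a description only. On the log2 scale, H460C minus H460R was -1.52 for DUSP1, -1.47 for SPRY2, -0.83 for DUSP6, -0.66 for SPRED2, -0.25 for SPRED1, -0.20 for DUSP4, 0.85 for DUSP5, 0.66 for SPRY1, and 0.20 for SPRY4. In DUSP1, SPRY2, and SPRED1 both replicates of H460C lay below 0 and both of H460R above 0. The share of all tested genes with opposite signs was not counted. For SPRED1 this held at the brightest probe, and the second probe lay below 0 in both populations.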

How the results depend on the processing

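No member was called against H460 cells by Rank Products under any alternative that gave such a test, while limma in place of Rank Products called 7 members in H460C and 7 in H460R. By limma, 40.3% of all tested genes were called higher and 39% lower in H460C, and 38.9% and 37.6% in H460R. A single ratio allows no Rank Products test, so leaving out a replicate gave values only. In H460C minus H460R, 6 to 9 members were called when 1 replicate was left out, where 48.5% to 73.6% of all probes were called, and 6 to 9 under the other alternatives, where 41.9% to 69.8% were. DUSP1, SPRY2, DUSP6, SPRED2, DUSP5, and SPRY1 kept their call in each alternative that could be run. SPRY1 was not kept by the strict filter, and passed the filter used here through H460C alone. DUSP4 lost its call in 10 of 17 alternatives, and SPRED1 and SPRY4 in 4 each. The replicate numbers were not taken as pairs (correlation of the deviations 0.045), and a replicate block gave 9 called members.

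Only small ratios changed sign, and the cause was not tested. DUSP2 in H460C minus H460R was -0.055 without H460R replicate 2 and 0.21, a call, without replicate 1. DUSP2 in H460C was -0.080 with probes averaged. In H460R it was -0.035 with the software's log ratio, -0.02 in the processed table, -0.11 with probes averaged, -0.071 on Cy5 arrays, -0.10 without replicate 1, and 0.17 without replicate 2. DUSP5 in H460R was -0.039 with the software's log ratio, -0.0475 in the processed table, -0.018 with offset 0, -0.15 on Cy3 arrays, and -0.062 to 0.073 with a replicate left out. DUSP6 in H460R was 0.42 on Cy3 arrays and -0.30 to 0.088 with a replicate left out. DUSP4 in H460C was -0.079 on Cy5 arrays. SPRY4 was 0.28 in H460C and 0.090 in H460R on Cy3 arrays, and with median centring SPRY4 and SPRED1 were 0.15 and 0.11 in H460C. Keeping spots with raised local background, an alternative chosen after seeing the data, gave 8 called members in H460C minus H460R.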
